A study of Mus musculus with 2 samples.

Results

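Txnip, the arrestin-domain genes Arrdc1, Arrdc2, Arrdc3 and Arrdc4, and the genes Mlxip (encoding MondoA) and Mlx were followed in mDE6 cells after inhibition of GSK-3. The 7 genes were chosen by name from the 37074 gene names on the array, with no measured value in the rule. Earlier results of these data were known when they were chosen. Of the array's 56605 distinct probes, 14 carry these names. mDE6 is a mouse odontogenic epithelial cell line, and it was the only line profiled. The control was 1 array of mDE6 cells given the vehicle DMSO for 6 h, and the other was 1 array of mDE6 cells given CHIR99021, an inhibitor of GSK-3 that activates the β-catenin pathway, for 6 h. The sample labels give the CHIR99021 dose as 5 mM and a DMSO vehicle, while the methods state 5 μM and an untreated control. With 1 array per condition there was no test, and no difference below has a replicate check. The arrays shared 1 slide at different positions, and an effect of the position cannot be told apart from one of the treatment.

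Txnip belongs to the α-arrestins, scaffold proteins that carry cell surface proteins to ubiquitin ligases of the NEDD4 family and so to endocytosis. Txnip also binds reduced thioredoxin, and it lowers glucose uptake by promoting the internalization of glucose transporters. MondoA and its dimer partner Mlx sense glucose 6-phosphate, enter the nucleus and bind carbohydrate response elements in the promoters of Txnip and Arrdc4, so that both genes are commonly used as readouts of MondoA activity.

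Because Txnip and Arrdc4 are the classical MondoA:Mlx targets, the 250 bases before their RefSeq start sites are shown (GRCm38.p6, 5′ to 3′ on the strand of the gene). Capitals mark CACGTG, pairs of CACGNG with 5 bases between them, and CCAAT on either strand (ATTGG on the reverse). The Txnip stretch lies at chr3:96557707-96557956 on the + strand and the Arrdc4 stretch at chr7:68749239-68749488 on the - strand.
Txnip: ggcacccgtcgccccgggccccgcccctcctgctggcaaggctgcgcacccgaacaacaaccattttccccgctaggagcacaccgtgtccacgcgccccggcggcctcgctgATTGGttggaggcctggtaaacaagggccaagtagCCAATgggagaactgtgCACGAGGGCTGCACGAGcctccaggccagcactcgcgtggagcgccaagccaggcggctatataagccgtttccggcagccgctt
Arrdc4: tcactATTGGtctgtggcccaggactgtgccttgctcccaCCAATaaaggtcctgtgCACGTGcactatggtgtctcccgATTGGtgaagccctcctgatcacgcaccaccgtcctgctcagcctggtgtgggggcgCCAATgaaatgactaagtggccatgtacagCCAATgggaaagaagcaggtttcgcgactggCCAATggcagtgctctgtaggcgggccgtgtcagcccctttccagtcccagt

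The Txnip stretch holds a CACGNG pair from -85 to -69 relative to the start site. Such a pair occurs in 15 of 32851 RefSeq promoter windows of the same length (0.0457%). Arrdc4 has CACGTG from -193 to -188, and Mlx has it from -40 to -35. CACGTG occurs in 1978 of the 32851 windows (6.02%). CCAAT was found at 2 places in the Txnip stretch and at 6 in that of Arrdc4, while 33.8% of the windows hold at least 1, 10.1% at least 2 and 0.840% at least 4. Arrdc2 had it at 3 places, Mlxip and Mlx at 2 each, Arrdc3 at 1 in some of its windows and Arrdc1 at none. Neither CACGTG nor the pair was found in the windows of Arrdc1, Arrdc2, Arrdc3 or Mlxip. These are letter matches, and binding was not measured.

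Values are given as the processed signal of the spot, in arbitrary units, before scaling. Ratios are CHIR99021 over control after division by the array's 75th percentile (486.7 in control, 469.17 with CHIR99021). A probe was tested if it was well above background on at least 1 array, which left 28066 probes. The Z-score places a log2 ratio within the 500 tested probes of nearest mean signal. A probe was called lower when the ratio was 0.66 or less together with a Z-score of -2.0 or less, and higher when these were 1.5 or more and 2.0 or more. The ± after a log2 ratio is the error computed by the scanner software, which at most signals is its preset 10% per array and is no replicate spread.

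None of the 12 tested member probes met the criteria in either direction, whereas 2.72% of all tested probes were lower and 2.35% were higher. The ratio limit alone was passed by 0 member probes on the lower side and by 1, a Mlx probe, on the higher side, beside 9.68% and 8.24% of all tested probes. The Z-score limit alone was passed by 1 Txnip probe. The share of all tested probes that passed it was not counted, so this has no background to be read against. Of the 14 member probes, 11 were well above background on both arrays, 1 was so on the control array alone and 2 on neither. Every one of the 7 genes had a tested probe. At the probe of highest mean signal in each gene, 4 genes had a ratio below 1, and the log2 ratios ran from -0.52 for Txnip to 0.53 for Mlx, with a median of -0.08. The median over all 18837 tested genes was 0.02.

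**Figure D1:**
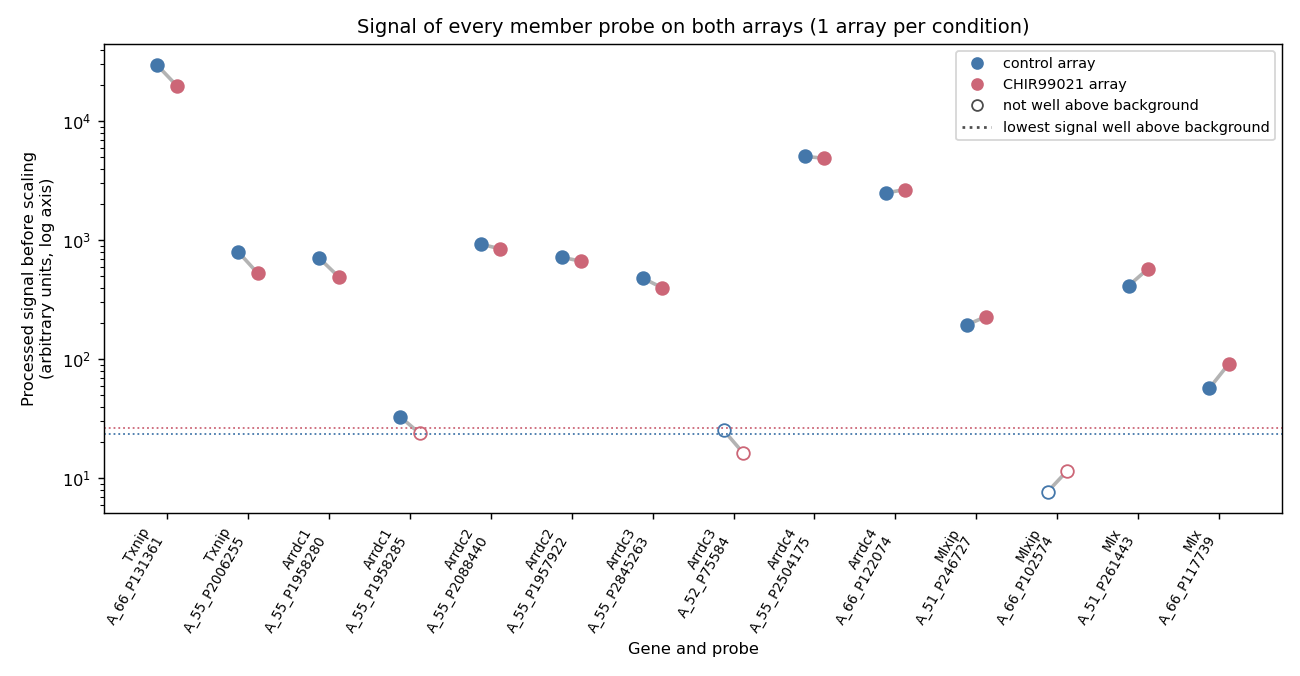
Processed signal before scaling (arbitrary units, log axis) of the 14 probes of the 7 genes on the control array (blue) and the CHIR99021 array (red), with 1 array per condition and no error bars. Both Txnip probes and the brighter Arrdc1 probe were lower on the CHIR99021 array, both Mlx probes were higher, and open circles mark signals not well above background.

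Txnip, the best known α-arrestin and a brake on glucose uptake, was lower on the CHIR99021 array at both of its probes. Probe A_66_P131361 (mm9, chr3:96365340-96365399, + strand) read 29497 in control and 19893 in CHIR99021-treated cells. The ratio was 0.700 (log2 -0.52 ± 0.20) with a Z-score of -2.56, so the Z-score passed its limit and the ratio did not. Whether fewer cells carried the transcript or each cell carried less of it cannot be told apart in a bulk sample.

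The second Txnip probe, A_55_P2006255 (chr3:96364206-96364265, + strand), read 798 and 527. Its ratio was 0.686 (log2 -0.54 ± 0.21), with a Z-score of -1.64. The probes lie 1074 bases apart with no base in common, and their log2 ratios differed by 0.03. Both are thus just short of the ratio limit, on spots in different rows of the array (82 and 302 of 384).
The first 30 bases of the 60-base probes show that they read different stretches of the transcript.
Txnip A_66_P131361: aaaggcccagcttggttattgcttttgagg
Txnip A_55_P2006255: tggacgactctcaagacagccctatcttta

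The place of Txnip among other probes depended on the signal with which it was compared. Among the 500 probes nearest in signal to A_66_P131361, none had a lower ratio, and their log2 ratios averaged 0.10 with an SD of 0.24. Among the 500 nearest to the dimmer probe A_55_P2006255, 31 had a lower ratio, since the SD there was 0.34. Over all 16886 genes measured on both arrays, 1284 (7.60%) had a ratio below that of Txnip. Thus many genes had ratios as low as that of Txnip, but no other probe in its window of bright probes did.

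The spot-to-spot error gives another scale for these values. Probes printed 10 times with signals of 10000 or more had a median SD of the log2 ratio of 0.03 (269 probes), and those between 100 and 1000 had 0.14 (4 probes). The Txnip log2 ratios of -0.52 and -0.54 were larger than this spread, which leaves out the variation between cultures. No spot with an on/off difference over 4-fold lay within 3 rows and columns of either Txnip probe. The spots that near had a median log2 ratio of -0.17 around A_66_P131361 and 0.11 around A_55_P2006255, and the part of array position in the Txnip values was not tested.

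Scaling moved the bright Txnip probe across the limit. Its ratio was 0.648 with quantile normalization, 0.659 with cyclic loess and 0.648 in the normalized table that was deposited with the arrays, and in each case it met the criteria for a lower probe. The dimmer probe ranged from 0.661 to 0.706 and met them in no setting tried.

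**Figure D2:**
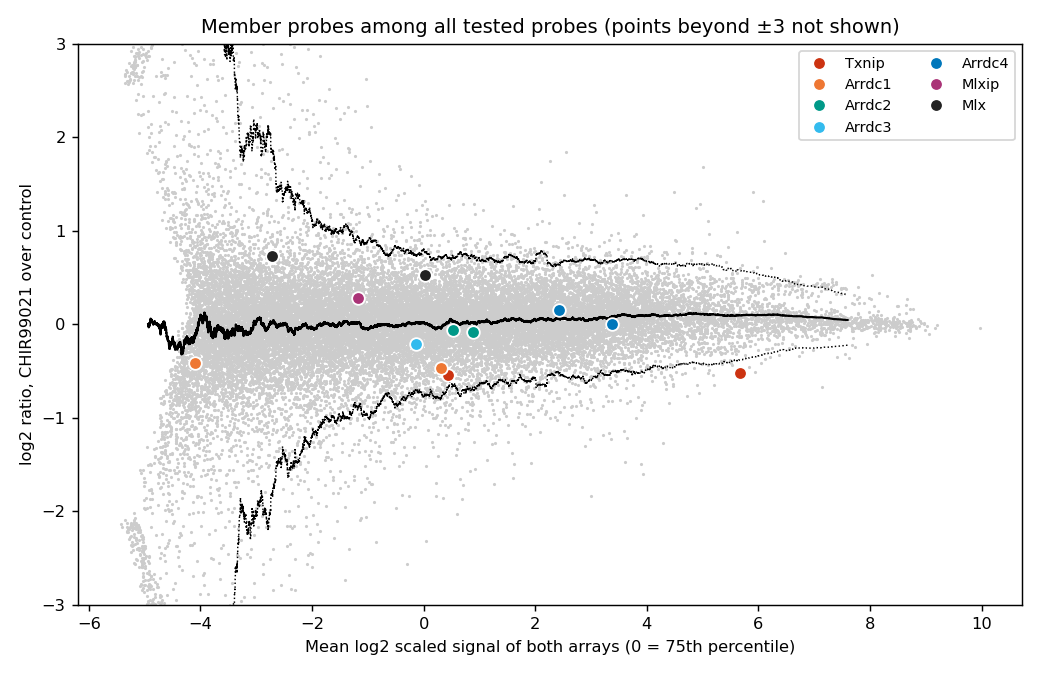
The log2 ratio of CHIR99021 over control (y axis) against the mean log2 scaled signal of both arrays (x axis, 0 at the 75th percentile) for the tested probes (grey) and the tested probes of the 7 genes (colors). The solid line is the mean of the 500 nearest probes and the dotted lines lie 2.0 SD from it, and the bright Txnip probe at -0.52 is the only member below the lower line.

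The 5 genes whose log2 ratio was nearest to that of Txnip, over the 2 arrays, were Sp7, Oog2, Numbl, Zrsr1 and Pitpnc1, with ratios of 0.700, 0.700, 0.700, 0.699 and 0.700. In all, 453 genes lay within 0.05 of it on the log2 scale. With 1 array per condition the likeness rests on a single ratio per gene.

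Arrdc1, which recruits ESCRT proteins to bud vesicles from the plasma membrane, resembled Txnip in size at its brighter probe. Probe A_55_P1958280 (chr2:24780875-24780934, - strand) read 708 and 493. The ratio was 0.722 (log2 -0.47 ± 0.21), the Z-score was -1.15, and 54 of the 500 nearest probes had a lower ratio. Arrdc1 was therefore lower on the CHIR99021 array, but within the scatter of probes of its signal. Probe A_55_P1958285 (chr2:24782434-24782493, - strand) read 32.9 in control and 23.8 in CHIR99021-treated cells, where it was not well above background, so that it was at least 1.21-fold lower. That limit depended on the background correction, since with normexp the ratio was 0.998.

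Arrdc2, a less studied relative, was nearly the same on both arrays. Probe A_55_P2088440 (chr8:73359065-73359124, - strand) read 925 and 845, with a ratio of 0.948 (log2 -0.08 ± 0.20). Probe A_55_P1957922 (chr8:73359054-73359113, - strand) read 718 and 665, with a ratio of 0.961 (log2 -0.06 ± 0.20). The probes share 49 bases and are not separate evidence.

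Arrdc3, which sends β-adrenergic receptors and integrin β4 for degradation, read 479 and 398 at probe A_55_P2845263 (chr13:81035204-81035263, + strand). The ratio was 0.862 (log2 -0.21 ± 0.21) with a Z-score of -0.64. Its other probe, A_52_P75584, read 25.2 and 16.2 and was well above background on neither array, so no ratio is given.

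Arrdc4, the closest relative of Txnip in regulation and likewise a brake on glucose uptake, did not share the lower values of Txnip. Probe A_55_P2504175, assigned to transcript variant 2 (chr7:75886496-75886555, - strand), read 5056 and 4885. The ratio was 1.00 (log2 0.00 ± 0.20) with a Z-score of -0.28. Probe A_66_P122074, assigned to variant 1 (chr7:75882043-75882102, - strand), read 2492 and 2665, a ratio of 1.11 (log2 0.15 ± 0.20). The probes lie 4393 bases apart, and their log2 ratios differed by 0.15.
The first 30 bases of each are given because these probes are assigned to different transcript variants.
Arrdc4 A_55_P2504175: catcagagtggactactccttagctgtaat
Arrdc4 A_66_P122074: tcccttcccctggagcacaactttactttc
Across the settings tried the ratio of the gene, by its brighter probe or its probe mean, lay between 0.946 and 1.05 and its sign changed in 6 of 14 of them. The dimmer probe stayed between 1.06 and 1.14. No direction can be given for the brighter probe. The difference between Txnip and Arrdc4 could not be tested with 1 array per condition.

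**Figure D3:**
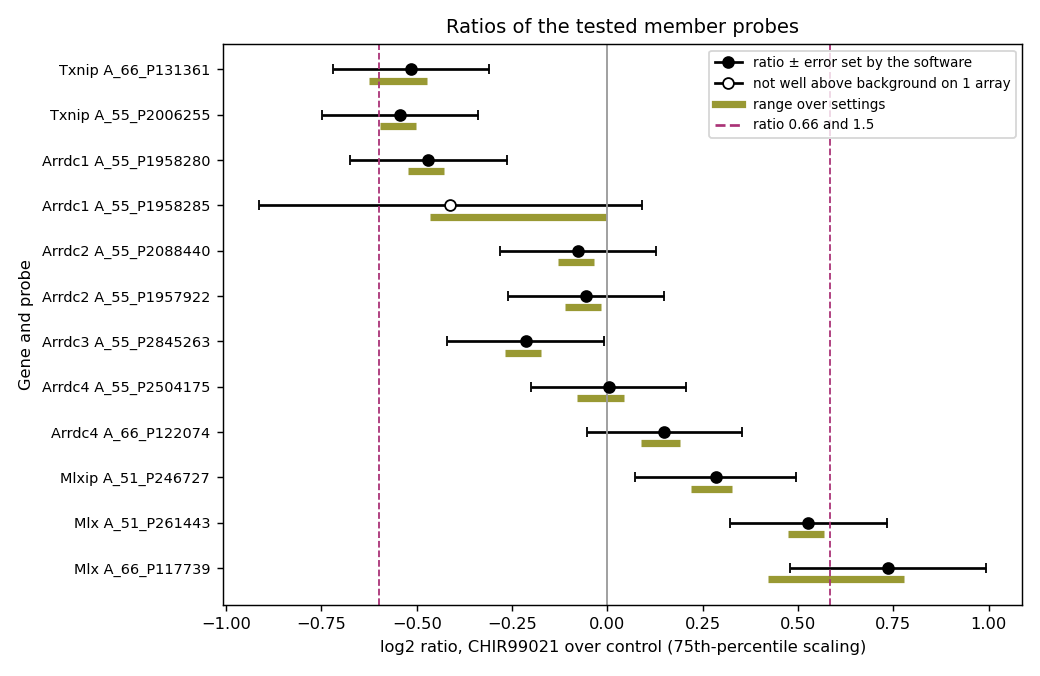
The log2 ratio of CHIR99021 over control (x axis) at each of the 12 tested probes (rows), with the error set by the software as bars, the range over the processing settings as olive lines and the ratio limits of 0.66 and 1.5 as dashed lines. Both Txnip probes lie just inside the lower limit, Arrdc4 lies around 0, and the dimmer Mlx probe lies past the upper limit.

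The genes of the transcription factors had ratios above 1. Mlxip, whose product MondoA is held outside the nucleus at low glucose 6-phosphate, read 194 and 228 at probe A_51_P246727, assigned to transcript variant 2 (chr5:123907398-123907457, + strand). The ratio was 1.22 (log2 0.28 ± 0.21) with a Z-score of 0.59. Probe A_66_P102574, assigned to variant 1, read 7.69 and 11.5 and was well above background on neither array. A spot with an on/off difference over 4-fold lay within 3 rows and columns of A_51_P246727, and its part in this value was not tested.

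Mlx, the dimer partner of MondoA, was higher on the CHIR99021 array at both probes. Probe A_51_P261443 (chr11:100952426-100952485, + strand) read 413 and 574, with ratio 1.44 (log2 0.53 ± 0.21) and Z-score 1.37. Probe A_66_P117739 (chr11:100952890-100952949, + strand) read 57.0 and 91.6, with ratio 1.67 (log2 0.74 ± 0.26) and Z-score 0.79. The second passed the ratio limit alone, as did 8.24% of all tested probes.
The pair lies 404 bases apart, and the first 30 bases are given because both probes pointed the same way.
Mlx A_51_P261443: ctacgagagattgtgatcggtgtccttcat
Mlx A_66_P117739: cagttcttaagttagaaaaaaggaaaagaa
Among the 500 nearest probes, 31 had a higher ratio than the brighter Mlx probe and 33 than the dimmer one. Mlx thus stood near the upper edge of its signal class without meeting the criteria, and the ratio of the gene stayed between 1.39 and 1.55 in the settings tried.

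The partners and antagonists of Mlx were examined next. In this and the following lists each gene was counted at its probe of highest mean signal. Of 11 MLX-MAX network factors, 9 had a tested probe and 1 was lower by the criteria, and the median log2 ratio was -0.24 beside 0.02 over all tested genes. With the earlier rows of the arrays alone that median was -0.01. At the gene level, 3.22% of all tested genes were lower and 2.63% were higher. The lower gene was Mxd4, a repressor that dimerizes with Max or Mlx. It read 968 and 158 at its brighter probe, a ratio of 0.169 (Z-score -6.64), and 364 and 110.3 at the other, a ratio of 0.315 (Z-score -3.79).

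Both Mxd4 probes were well above background on both arrays, and both lie in the later rows (283 and 341). The rows past the middle row, 192, held 51.6% of the tested probes but 68.7% of the lower and 74.7% of the higher ones, and the part of array position in these calls was not tested. Max, the common partner, had a ratio of 1.41 and Mnt, a repressor that can also bind Mlx, 0.848. Mlxipl, which encodes the MondoA paralog ChREBP, was looked up after its values were seen. It read 1029 and 1036 at its brightest probe (ratio 1.04) and 295 and 307 at another (ratio 1.08). Probe A_55_P2119957 in row 368 met the criteria for a lower probe, with 233.0 and 35.0 (ratio 0.156, Z-score -3.56), on a control spot whose pixel variation (0.451 of the mean) was above the 99th percentile (0.348).

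Genes known to carry carbohydrate response elements were listed beside Txnip. Of 12, 9 were tested, 8 of these had a ratio above 1 (as did 53.4% of all tested genes) and 2 were higher by the criteria, with a median log2 ratio of 0.45. Fasn, encoding fatty acid synthase, read 11422 and 23647, a ratio of 2.15 (Z-score 3.78). Acaca, encoding the acetyl-CoA carboxylase that makes malonyl-CoA, read 3715 and 6114 at its brightest probe, a ratio of 1.71 (Z-score 2.34). Its other probes measured on both arrays had ratios of 1.58, 1.13 and 1.12 and did not meet the criteria. Acly, which supplies cytosolic acetyl-CoA, had a ratio of 1.36. The 6 other tested genes of the list did not meet the criteria, with ratios from 0.805 for Khk, which phosphorylates fructose, to 1.66 for Rgs16, a regulator of G protein signaling.

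Genes of glucose uptake and phosphorylation were listed next. Of 10 glucose transporters and hexokinases (with Pfkfb3), 9 were tested, 6 of these had a ratio above 1 and 3 below, and 3 were higher by the criteria, with a median log2 ratio of 0.44. Over the 8 genes measured on both arrays the median was 0.38, and across the settings tried the list median lay between 0.32 and 0.53. The lowest ratio was 0.669, for Slc2a8, which did not meet the criteria. Slc2a1, which encodes the transporter GLUT1 that Txnip internalizes, read 3712 and 9319.6, a ratio of 2.60 (Z-score 4.28). Hk2, which makes the glucose 6-phosphate that MondoA senses, read 956 and 2224 (ratio 2.41, Z-score 3.63).

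Hkdc1, a further hexokinase, was the remaining higher gene, which was not well above background in control cells (5.09) and read 176 in CHIR99021-treated cells, at least 7.70-fold higher. Its spot was uneven (pixel variation 0.416 of the mean, 99th percentile 0.337) and lies in row 378. Hk1, the brightest gene of the list, had a ratio of 0.957 at its brightest probe and of 1.44 at another measured on both arrays, so its probes disagreed. The signals of Slc2a1 and Hk2 were measured on both arrays, in the earlier rows (75 and 173).

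**Figure D4:**
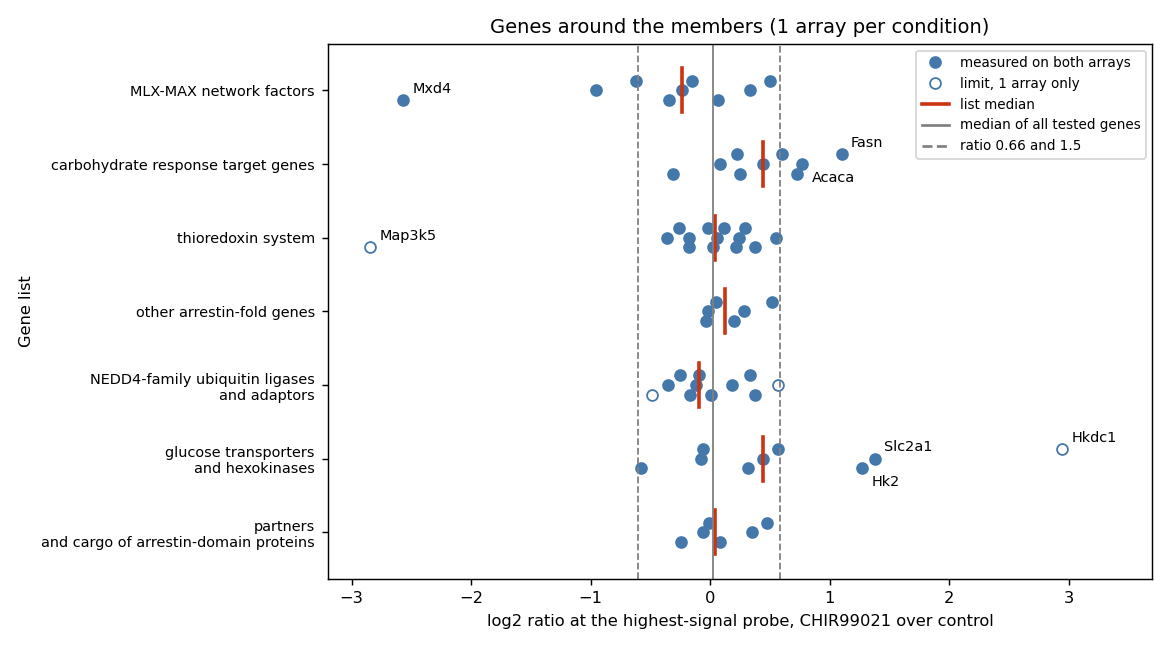
The log2 ratio of CHIR99021 over control at the highest-signal probe (x axis) of every tested gene in 7 gene lists (rows), with the list median in red, the median of all tested genes in grey and the ratio limits of 0.66 and 1.5 dashed. Mxd4 and Map3k5 are the lower genes and Fasn, Acaca, Slc2a1, Hk2 and Hkdc1 the higher ones, and open circles are limits for genes measured on 1 array only.

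The genes of the thioredoxin system, with which Txnip interacts as a protein, lay on both sides of a ratio of 1. Of 15 genes, 14 were tested, 1 was lower and none was higher, with a median log2 ratio of 0.04. Txn1, the thioredoxin that Txnip binds, read 24558 and 24008, a ratio of 1.01. The brightest of the list were the peroxiredoxin genes Prdx1 and Prdx5, with ratios of 1.22 and 0.886. The lower gene, Map3k5, encodes ASK1, a kinase held inactive by thioredoxin. It read 202 in control cells and was not well above background in CHIR99021-treated cells, at least 7.18-fold lower, but its control spot was uneven (0.430 of the mean), and its other probe had a ratio of 0.513 without meeting the criteria.

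Among other arrestins and the proteins that α-arrestins work with, no gene met the criteria at its highest-signal probe. Of 8 other arrestin-fold genes, 6 were tested with none lower or higher (median log2 ratio 0.13), and the retromer genes Vps26a and Vps26b had ratios of 1.21 and 0.988. All 11 NEDD4-family ligases and adaptors were tested with none lower or higher (median -0.10), and Nedd4 and Wwp2 had ratios of 0.922 and 0.842. Of 7 partners and cargo of arrestin-domain proteins, 6 were tested with none lower or higher (median 0.04), among them Pdcd6ip, encoding the ESCRT adaptor ALIX, at 1.27 and Vps4b, encoding an ESCRT ATPase, at 0.993. Another probe of Slc11a2, which encodes the iron transporter DMT1 and was singled out after its values were seen, was higher by the criteria. That probe, A_52_P196476, read 1078 and 1885 (ratio 1.81, Z-score 2.35), and the 3 other Slc11a2 probes had ratios from 1.39 to 1.70 without meeting them.

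The labelled cell type was set against its markers. Of 6 epithelial marker genes, 2 were well above background on each array, and Krt8, Cdh1 and Epcam were not so on either. The summed epithelial signal was 95.9 in control and 258 in CHIR99021-treated cells, and most of the latter was Krt5 (165), which was not well above background in control. The enamel matrix genes Ambn, Amelx and Enam were well above background on neither array. Of 6 mesenchymal genes, 5 were well above background on both arrays, with Vim at 52302 and 45883 and Col1a1 at 122712 and 116216, and a summed signal of 177601 and 165199. Of 4 blood and endothelial genes, 3 were well above background in control and 2 in CHIR99021-treated cells, with summed signals of 2323 and 2480.3. Most of that sum was Ptprc (1709 and 1764), which was well above background at 1 of its 7 probes. The part of other cells in the ratios above was not tested.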

How the data were processed

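Per the file headers and the study's methods, RNA of mDE6 cells was labelled with Cy3, hybridized to Agilent arrays and quantified with Feature Extraction (10.7.1.1 in the headers, 9.5.1.1 in the submitters' processing notes). The authors deposited spot intensity values with background subtracted, not normalized between arrays. They also deposited a second table of normalized intensity, which was taken to log2 here and used as an alternative. The methods name a human array, whereas the headers name a mouse design and build mm9, followed here.

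Control spots and outlier spots (64 and 47) were left out of the probe values. Of 59305 spots per array, 49.8% (control) and 48.3% (CHIR99021) were well above background and none was saturated. The number of arrays limits the precision. For a probe measured on 1 array alone only a limit is given, taken against its own dim signal or the array's lowest signal well above background (23.7 and 26.3), whichever was higher. The methods print the Z-score limit without sign or definition. Python 3.11.15 was used with pandas 2.3.3 and numpy 2.4.6, also for quantile normalization, and figures were made with matplotlib 3.10.9. Normexp (offset 50) and cyclic loess were run with limma 3.58.1 in R 4.3.3. Calls were tested on simulated data.

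All member probes were named, as were list genes meeting the criteria, the 2 brightest of each list and the 5 genes nearest to Txnip in log2 ratio. Txn1, Mlxipl, Slc11a2, Slc2a8, Khk and Rgs16 fall outside this rule and were chosen after their values were seen. The members and lists were chosen with earlier results of these data known. Probe names are those of the files, which give no exon or UTR, and 13 of the 14 member probes matched a RefSeq symbol (GRCm38.p6), in each case the same. Alternatives changed the scaling, background correction, filters, call rule and choice of probe. The values of 1 gene of the marker lists are not reported here.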

Additional observations from a re-analysis of the deposited data

How the results depend on the processing

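The log2 ratio of Txnip (-0.52) was -0.63 with quantile normalization, -0.60 with cyclic loess, -0.63 in the authors' normalized table, -0.57 with no scaling, -0.57 with the percentile over probes measured on both, and -0.47 with the median of each array. It moved by less than the spot-to-spot SD in the other 8 of 14 settings and kept its sign in all 14. The number of member probes meeting the criteria was 1 (Txnip A_66_P131361) with quantile normalization, cyclic loess and the authors' table, 1 (Mlx A_66_P117739) with the ratio criterion alone, and 0 in the other settings. Of all tested probes, 763 were lower and 659 higher. The ratio alone gave 2717 and 2312, a Z-score from the median and MAD 1369 and 1265, and the earlier rows alone, an alternative chosen after seeing the data that holds fewer probes, 350 and 260. With no filter on dim probes 917 were lower and 1031 higher, and with a floor on low signals 727 and 744, so that higher calls outnumbered lower ones in both. The medians of the partners and of the thioredoxin list changed sign in 3 and 5 of 14 settings, so neither has a direction, and those of the other 5 lists kept theirs. Dim probes were limited by background. The cause was not tested for any of these shifts. No paired analysis was possible because there is 1 control and 1 treated array.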
